A study of Mus musculus with 4 samples.

Results

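Trp53, the gene for the transcription factor p53, and 9 of its well-established direct target genes were followed in leukaemia stem cells with and without Rreb1. The 10 genes were Trp53, Cdkn1a, Mdm2, Ccng1, Phlda3, Bbc3, Pmaip1, Trp53inp1, Zmat3 and Aen, taken by symbol from a deposited table of 16442 genes. All 10 were in the table. All 10 also had a mean of at least 1 FPKM (fragments per kilobase of exon, normalised to library size), the level required for testing, which left 11768 genes. Poly(A) RNA had been sequenced from leukaemia stem cells, the cells of a leukaemia that can restart it, taken from bone marrow of C57BL/6 mice with leukaemia. The 2 groups were wild type (WT) and Rreb1-KO (KO), with 2 biological replicates each. The genotype field of the second KO library reads Rreb2-KO, and its title places it in the KO group. The RNA extraction protocol names TAMs as its source, whereas every title gives LSC. The labels do not state how the leukaemia was made, which part of Rreb1 was removed or in which cells, how old the mice were, or whether mice were pooled.

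p53 is held at a low level by Mdm2, a ubiquitin ligase that marks it for degradation. DNA damage, oncogene activity and other stresses free p53 from Mdm2, and p53 then binds its response elements and raises transcription of genes for cell cycle arrest, cell death, DNA repair and its own feedback. Because Mdm2 is itself a p53 target, the 2 proteins form a loop. In blood cells p53 limits the growth of damaged stem and progenitor cells, and p53 activity is set largely by protein stability, which mRNA levels do not report.

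The p53 response element is 2 adjacent half-sites of 10 bases. Each half-site has an invariant C and, after a pair of A or T bases, an invariant G. RefSeq promoter windows on GRCm38.p6, from 250 bases before to 50 after a transcript start, were found for 7 of the 10 genes, in 11 windows. Pmaip1, Trp53inp1 and Zmat3 were without a window. Each window was searched on both strands for the 20-base p53 consensus with all 4 invariant bases kept, and the closest match per gene is shown for the 5 genes with at most 3 mismatches, with the invariant C and G in capitals:
Cdkn1a: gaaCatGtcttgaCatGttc
Ccng1: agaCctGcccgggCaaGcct
Bbc3: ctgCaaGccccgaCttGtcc
Aen: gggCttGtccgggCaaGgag
Trp53: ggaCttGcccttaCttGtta

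The Cdkn1a match (chr17:29090928-29090947, plus strand) and the Ccng1 match (chr11:40755462-40755481, minus strand) each had 1 mismatch. They began 51 and 195 bases before the transcript start of their windows and lay between genes annotated in GENCODE M21. The other 3 had 3 mismatches each. The Bbc3 match (chr7:16309486-16309505, plus strand) fell in an intron of Bbc3, the Aen match (chr7:78895937-78895956, plus strand) in an exon of Aen, and the Trp53 match (chr11:69580284-69580303, plus strand) between annotated genes. The other Cdkn1a window had a closest match with 7 mismatches, and the other Bbc3 windows had ones with 7 and 8. Of 32851 promoter windows of this length, 0.326% held a match with at most 2 mismatches, and 1.38% held one with at most 3. Counted by gene, over all windows of a gene, the shares were 0.392% and 1.63%. The limit was 2 mismatches, and the 3 matches with 3 mismatches lie just outside it. The genes were chosen as known p53 targets, so this count is a description of them. For Mdm2 and Phlda3 the closest matches had 9 and 5 mismatches, which says only that these letters were not in these windows.

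Around the 2 closest matches the promoters read as follows, with 50 bases before and 30 after the match, and the match in capitals. The Cdkn1a stretch is chr17:29090878-29090977, plus strand, and the Ccng1 stretch is chr11:40755432-40755531, minus strand.
Cdkn1a: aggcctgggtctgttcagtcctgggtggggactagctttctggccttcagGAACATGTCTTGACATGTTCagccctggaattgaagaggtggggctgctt
Ccng1: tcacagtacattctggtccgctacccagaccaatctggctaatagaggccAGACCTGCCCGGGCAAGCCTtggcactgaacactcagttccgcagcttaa

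Depth was 16590831 to 18451255 assigned reads per library. For a gene with an exonic length of 2 kb, 3 reads are worth 0.0813 to 0.0904 FPKM, a limit for counting error alone. The targeted gene Rreb1 stood at 5.24 and 6.57 FPKM in WT and at 6.10 and 6.93 FPKM in KO (limma adjusted p = 0.616), over all exons. The transcript values therefore do not check the genotype labels, and KO and WT below stand for those labels. The labelled cell type was set against its markers: the leukaemia self-renewal genes Hoxa9 and Meis1 were at 28.9 to 35.8 and 10.8 to 11.9 FPKM, and the granulocyte precursor gene Elane at 5204 to 7205 FPKM. The stem cell factor receptor gene Kit was at 3.65 and 4.25 FPKM in WT and 7.36 and 7.15 in KO. Its limma adjusted p of 0.0512 lay just above the threshold of 0.05. Across all genes tested 119 were called between the genotypes, which is 1.01% (limma, Benjamini-Hochberg adjusted p below 0.05), 71 higher and 48 lower in KO.

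None of the 10 genes was called in either direction (limma, 11768 genes tested), against a background of 0.603% called higher and 0.408% called lower. At an unadjusted p below 0.05, 3 of the 10 were lower in KO (Phlda3, Bbc3 and Pmaip1) and 0 higher, where the background was 9.35% lower, 11.4% higher and 20.7% in either direction. Estimated differences were below 0 for 9 of the 10, against 46% of all genes tested, and their median was −0.16 on the log2(FPKM + 1) scale, against 0.03 for all genes. For 5 genes (Mdm2, Phlda3, Bbc3, Pmaip1 and Aen) the KO libraries were both lower than either WT library, as for 24.9% of all genes, and for 0 they were both higher, as for 30.5%. By limma-voom on recovered reads, 1 of the 10, Pmaip1, was called lower, where 2.92% of 11488 genes were. With 2 libraries per genotype, 0.33 is the smallest two-sided p that permuting the labels allows, so every p here depends on limma's pooling of the spread over genes.

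**Figure D1:**
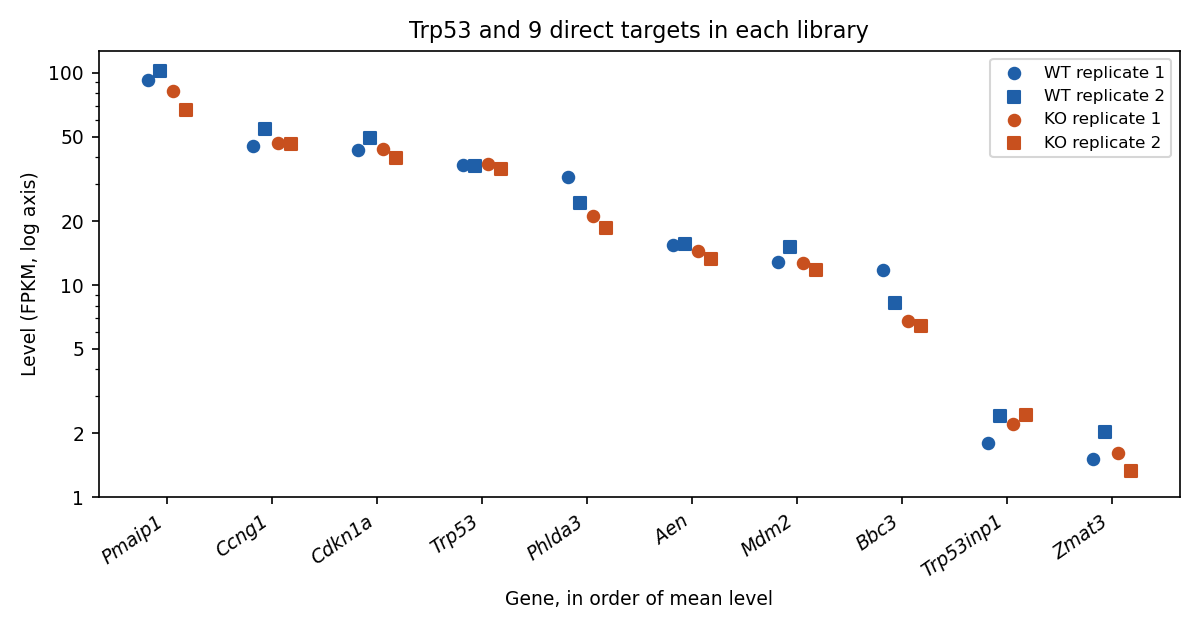
Level of each gene in each of the 4 libraries, in FPKM on a log axis, with genes in order of mean level; blue points are WT, orange points KO, circles replicate 1 and squares replicate 2. Pmaip1 is at the top with 66.5 to 102 FPKM, Zmat3 at the bottom with 1.33 to 2.02, and the points of Trp53 lie closest together.

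Trp53 itself was nearly level across the 4 libraries. It stood at 36.9 and 36.5 FPKM in WT and at 37.3 and 35.1 FPKM in KO, from 2757, 2452, 2782 and 2420 reads. The groups overlapped, and both the highest and the lowest value came from a KO library. The difference, KO minus WT, was −0.02 (SE 0.080, 95% limits −0.22 to 0.17, limma adjusted p = 0.902). The gene (ENSMUSG00000059552.13, chromosome 11, 69580359 to 69591873, plus strand, GRCm38) shares no exonic base with another annotated gene in GENCODE M21.

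Mdm2, the ubiquitin ligase of the feedback loop, was at 12.8 and 15.2 FPKM in WT and at 12.6 and 11.8 FPKM in KO. The KO libraries lay below the WT libraries, by a narrow gap between KO replicate 1 and WT replicate 1. The difference was −0.18 (SE 0.11, limma adjusted p = 0.390). Per unit length, the Mdm2 level was 0.346 and 0.415 of the Trp53 level in the WT libraries and 0.338 and 0.335 of it in the KO libraries. WT replicate 2 was the one that stood above the other 3.

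Cdkn1a and Ccng1 differed little. Cdkn1a, which encodes the cyclin-dependent kinase inhibitor p21, was at 43.2 and 49.5 FPKM in WT and at 43.9 and 39.7 FPKM in KO. KO replicate 1 lay above WT replicate 1, so the groups overlapped, and the difference was −0.14 (SE 0.10, 95% limits −0.39 to 0.11, limma adjusted p = 0.450). Of its 3553 exonic bases, 273 are shared with AC167363.2, a gene on the other strand, and the library kit is not described as marking strand, so reads over those bases cannot be assigned to 1 of them. Ccng1, which encodes cyclin G1, was at 45.1 and 54.2 FPKM in WT and at 46.5 and 46.4 FPKM in KO. Its WT libraries enclosed both KO libraries (difference −0.09, SE 0.11, limma adjusted p = 0.657). Among the 7 genes with a promoter window, these 2 had the closest matches to the p53 consensus. Their groups overlapped, as did those of Trp53, Trp53inp1 and Zmat3. Over all genes tested, 24.9% had both KO libraries below both WT libraries and 30.5% had them above. A link between promoter match and overlap was not tested.

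Larger differences were estimated for Bbc3, Pmaip1 and Phlda3, and not for Aen, another gene of cell death (−0.15). Bbc3 encodes PUMA and Pmaip1 encodes NOXA, both BH3-only proteins that oppose the survival members of the BCL-2 family. Bbc3 was at 11.7 and 8.23 FPKM in WT and at 6.77 and 6.44 FPKM in KO, from 459, 290, 265 and 233 reads. WT replicate 1 stood apart, 1.42 times the level of WT replicate 2, while the KO libraries were close together. The KO mean was 66.3% of the WT mean, with a difference of −0.51 (SE 0.16, 95% limits −0.90 to −0.12, limma adjusted p = 0.176). Without WT replicate 1 the difference was −0.28, and without WT replicate 2 it was −0.74.

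Pmaip1 had the highest level of the 10, 92.1 and 102 FPKM in WT and 82.2 and 66.5 FPKM in KO. All values were ordered by group, with KO replicate 2 the lowest. The KO mean was 76.5% of the WT mean, and the difference was −0.39 (SE 0.12, 95% limits −0.69 to −0.09, limma adjusted p = 0.18). Limma-voom on recovered reads gave −0.39 with an adjusted p of 0.0492, which passes the threshold by a small margin. Without KO replicate 2 the limma difference was −0.24, and without KO replicate 1 it was −0.54.

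Phlda3, a pleckstrin-homology protein that restrains AKT signalling, was at 32.4 and 24.5 FPKM in WT and at 21.2 and 18.5 FPKM in KO, from 932, 633, 608 and 491 reads. As with Bbc3, WT replicate 1 was the highest library, 1.32 times WT replicate 2. The KO mean was 69.7% of the WT mean (difference −0.49, SE 0.15, 95% limits −0.85 to −0.13, limma adjusted p = 0.164), and limma-voom gave an adjusted p of 0.0517. Without WT replicate 1 the limma difference was −0.29, and without WT replicate 2 it was −0.68. Among all genes tested, 2.50% had a lower estimated difference than Bbc3, 2.75% a lower one than Phlda3 and 4.65% a lower one than Pmaip1.

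**Figure D2:**
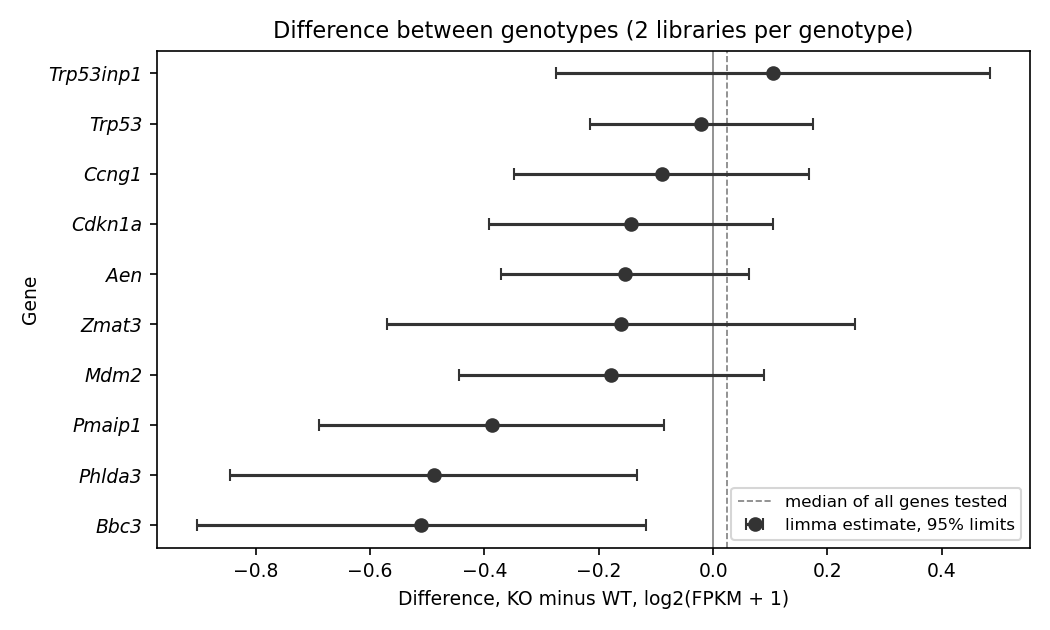
Estimated difference of each gene, KO minus WT, on the log2(FPKM + 1) scale, with points for the limma estimates and bars for their 95% limits; the dashed line is the median of all genes tested, 0.03. The limits of Bbc3, Phlda3 and Pmaip1 lie below 0, those of the other 7 include 0, and none of the 10 has an adjusted p below 0.05.

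Aen, an exonuclease that takes part in p53-dependent cell death, was steady in WT at 15.5 and 15.6 FPKM and stood at 14.5 and 13.3 FPKM in KO. Its groups were separate and the difference small, −0.15 (SE 0.089, limma adjusted p = 0.366). The last 2 genes were near the level required for testing. Trp53inp1, a p53-induced nuclear protein linked to stress responses and autophagy, was at 1.8 and 2.41 FPKM in WT and at 2.21 and 2.45 FPKM in KO. It was the only one of the 10 with an estimate above 0 (0.11, SE 0.16, limma adjusted p = 0.726), and without WT replicate 1 the estimate was −0.04. Zmat3, a zinc-finger RNA-binding protein, was at 1.51 and 2.02 FPKM in WT and at 1.61 and 1.33 FPKM in KO, with overlapping groups (difference −0.16, SE 0.17, limma adjusted p = 0.613).

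In order of mean level the genes were Pmaip1 (85.8 FPKM), Ccng1 (48.1), Cdkn1a (44.1), Trp53 (36.5), Phlda3 (24.1), Aen (14.7), Mdm2 (13.1), Bbc3 (8.29), Trp53inp1 (2.22) and Zmat3 (1.62). The ranges over the 4 libraries overlapped between Ccng1 and Cdkn1a, between Aen and Mdm2, and between Trp53inp1 and Zmat3. Within each of the 4 libraries, the first of each of these pairs was still the higher. The ranges of the other neighbours did not overlap. Pmaip1 was above 93.6% of all genes tested in mean level and Zmat3 above 11.1%. Between the BH3-only genes, Pmaip1 was at 7.86 and 12.4 times the level of Bbc3 in WT and at 12.1 and 10.3 times in KO, so WT replicate 1 was again the library that differed.

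Levels of the 9 targets together were 256 and 274 FPKM in the WT libraries and 232 and 206 FPKM in the KO libraries. The KO mean was 82.6% of the WT mean, and 86.1% without Pmaip1, whose level weighs most in the sum. KO replicate 2 was the lowest library for 8 of the 10 genes, and WT replicate 2 the highest for 6. The same shares over all genes were not determined, so these counts are not shown to be particular to the 10. The median absolute difference between the WT libraries was 0.26 (log2 scale) over the 9 targets and 0.12 over all genes tested. Between the KO libraries it was 0.12 and 0.13. WT replicate 1 and KO replicate 1 were the closest pair over the 9 targets, with a median absolute difference of 0.087. Over all genes tested that pair differed by 0.16, and the WT libraries were the closest pair.

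**Figure D3:**
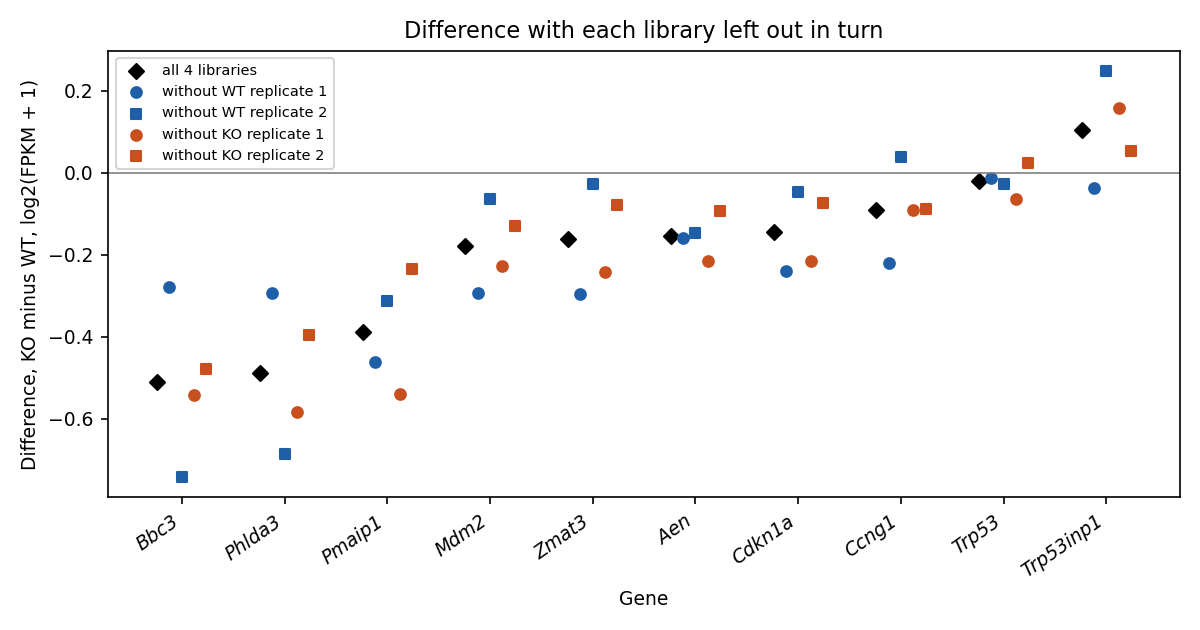
Estimated difference, KO minus WT, on the log2(FPKM + 1) scale for each gene with all 4 libraries (black diamonds) and with each library left out in turn (blue, a WT library; orange, a KO library). Cdkn1a, Mdm2, Phlda3, Bbc3, Pmaip1, Zmat3 and Aen lie below 0 in all 5 fits, and Ccng1, Trp53 and Trp53inp1 change sign in 1 of them.

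The differences of Cdkn1a, Mdm2 and Zmat3 shrank most without WT replicate 2, to −0.048, −0.064 and −0.027. Without WT replicate 1 the estimates for Mdm2 and Zmat3 were −0.29 each, close to the −0.29 of Phlda3 and the −0.28 of Bbc3 in that fit.

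Levels of cell type markers moved between the same groups of libraries. In bulk RNA, fewer cells of a type and less RNA per cell cannot be told apart. The summed level of 10 mature neutrophil markers was 1251 and 1285 FPKM in WT and 2922 and 3512 in KO, and 8 of the 10 were called higher in KO. Of 8 macrophage markers, 7 were tested and 4 were called lower, with sums of 116 and 137 FPKM in WT and 64.4 and 63.2 in KO. Erythroid markers summed to 93.5 and 83.8 FPKM in WT and 422 and 514 in KO (5 of 6 tested were called higher). Markers of mast cells and basophils went from 469 and 535 to 270 and 263 FPKM (2 of 3 tested were called lower), and those of B cells from 225 and 216 to 137 and 120 FPKM (3 of 5 tested were called lower). In each of these 3 lists 1 tested marker went the other way, with separate groups. Klf1 (erythroid) was at 2.23 and 0.943 FPKM in WT and 0.496 and 0.536 in KO. Mcpt8 (mast cells and basophils) was at 38.4 and 36.1 in WT and 42.2 and 44.8 in KO. Cd79a (B cells) was at 1.79 and 1.82 in WT and 3.09 and 3.71 in KO. Klf1, Mcpt8 and Cd79a were named after their values were seen. The markers of T and NK cells summed to 296 and 357 FPKM in WT and 432 and 363 in KO, and 0 of 5 tested were called by limma (4 lower at an unadjusted p below 0.05, 1 lower by limma-voom). Nkg7 alone carried that sum. The 6 other T and NK markers in the table all had a lower KO mean, and they summed to 14.0 and 16.0 FPKM in WT and 5.56 and 7.79 in KO. Leukaemic progenitor markers (8 tested) summed to 9010 and 6906 FPKM in WT and 8871 and 7924 in KO, most of it Elane, and to 1889 and 1702 in WT and 1666 and 1660 in KO without Elane. By limma 0 of them were called, with 2 in each direction at an unadjusted p below 0.05. Limma-voom called Kit higher, and called the progenitor gene Cd34 and the myeloperoxidase gene Mpo lower, whose KO means were 71.8% and 50.6% of the WT means. Cd34 and Mpo were named after their values were seen. No listed marker in the table was at 0 in all libraries. The part of these cell types in the values of Phlda3, Bbc3 and Pmaip1 was not tested.

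Genes that act on p53 were followed as a list of 20, of which 18 were in the table and tested. By limma 0 were called. At an unadjusted p below 0.05, 4 were higher and 2 lower in KO, against 11.4% and 9.35% of all genes. The median was 0.24, and 11 of 18 had both KO libraries above both WT libraries, where 30.5% of all genes did. Cdkn2a, whose products include ARF, an inhibitor of Mdm2, was at 12.4 and 12.1 FPKM in WT and at 7.97 and 9.17 FPKM in KO (difference −0.47, SE 0.10, limma adjusted p = 0.104). Mdm4, the partner of Mdm2 in holding p53 down, was at 6.67 and 8.35 FPKM in WT and at 9.76 and 10.4 in KO (0.38, SE 0.12, limma adjusted p = 0.18). Cdkn2a, like Mdm2, had both KO libraries below both WT libraries, and Mdm4 had them above.

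Usp7, a deubiquitinase that acts on Mdm2 and p53, was at 4.42 and 4.95 FPKM in WT and at 5.89 and 7.33 in KO (limma adjusted p = 0.176), and Rchy1, another ubiquitin ligase for p53, was at 17.1 and 18.4 FPKM in WT and at 14.6 and 13.2 in KO (limma adjusted p = 0.157). By limma-voom 4 of the 18 were called higher (Mdm4, Usp7, Hipk2 and Ep300) and 0 lower, where 4.36% of all genes were called higher. Hipk2, a kinase that phosphorylates p53, and Ep300, an acetyltransferase coactivator of p53, were named after their values were seen. Atm, the kinase that signals DNA breaks to p53, was at 1.78 to 2.55 FPKM, and was also named after its values were seen.

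The lists of other p53 targets had medians close to that of all genes with all 4 libraries, and 2 of these medians changed sign when a library was left out. In the growth arrest list 9 of 12 were tested and 0 were called by limma or by limma-voom. At an unadjusted p below 0.05, 2 were higher and 3 lower, against 11.4% and 9.35% of all genes. The median was 0.04, and it became −0.16 when WT replicate 2 was dropped and 0.12 when WT replicate 1 was. The stress-induced Sesn2 was at 8.48 and 9.64 FPKM in WT and at 6.05 and 7.06 in KO (difference −0.42, SE 0.12, limma adjusted p = 0.153), its relative Sesn1 at 2.67 and 2.53 against 1.5 and 2.01 (limma adjusted p = 0.223) and the antiproliferative gene Btg2 at 11.0 and 13.7 against 9.995 and 8.45 (limma adjusted p = 0.200). These 3 of the 9 had both KO libraries below both WT libraries, and 3 others had them above, against 24.9% and 30.5% of all genes. The 3 above were Sfn, which encodes 14-3-3 sigma, from 1.48 and 2.32 FPKM in WT to 2.69 and 3.57 in KO (limma adjusted p = 0.213), the antiproliferative gene Tob1, from 3.48 and 3.21 to 4.03 and 4.80 (limma adjusted p = 0.236), and Ptprv, from 1.02 and 1.18 to 1.62 and 1.39 (limma adjusted p = 0.402). Tob1 and Ptprv were named after their values were seen.

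In the cell death list 10 of 12 were tested and 0 were called by limma, with a median of 0.05. Of the 10 estimates, 8 were above 0 and 2 below, where 46% of all genes were below. The groups were separate with KO higher for 5 and with KO lower for 1, against 30.5% and 24.9% of all genes. At an unadjusted p below 0.05, 2 were higher and 1 lower, against 11.4% and 9.35% of all genes. Pidd1, the scaffold of the PIDDosome, was at 10.7 and 10.8 FPKM in WT and at 15.9 and 17.2 in KO (difference 0.58, SE 0.089, limma adjusted p = 0.0532). Perp, a membrane protein of cell adhesion and p53-dependent death, was at 11.7 and 14.8 FPKM in WT and at 23.8 and 22.3 in KO (0.76, SE 0.12, limma adjusted p = 0.0597). Limma-voom called these 2 genes higher (adjusted p = 0.0045 and 0.0040), where 4.36% of all genes were called higher. Of Bbc3 and Pmaip1, whose estimates were below 0, limma-voom called only Pmaip1 (adjusted p = 0.0732 and 0.0492). Triap1, a p53-regulated survival gene, was at 35.7 and 41.5 FPKM in WT and at 31.3 and 30.6 in KO (limma adjusted p = 0.18), and Dram1, a lysosomal membrane protein of autophagy, at 4.52 and 4.43 against 5.21 and 5.49 (limma adjusted p = 0.297).

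For DNA repair and metabolism 8 of 12 were tested and 0 were called by limma. At an unadjusted p below 0.05, 1 was higher and 0 lower, against 11.4% and 9.35% of all genes. The median was 0.02. It became −0.053 when WT replicate 1 was dropped, 0.11 when WT replicate 2 was and −0.0057 under median-ratio scaling. The ribonucleotide reductase subunit Rrm2b was at 1.19 and 1.60 FPKM in WT and at 2.05 and 2.21 in KO (limma adjusted p = 0.238), and was called higher by limma-voom. Tigar, a phosphatase that lowers glycolytic flux, was at 5.17 and 5.80 FPKM in WT and at 4.81 and 4.85 in KO (limma adjusted p = 0.449). The repair gene Ercc5, at 2.75 and 3.57 FPKM in WT and 3.41 and 3.34 in KO, and the damage sensor gene Ddb2, at 1.43 and 1.90 against 1.65 and 1.995, had overlapping groups.

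Cell cycle genes that p53 represses indirectly, through p21 and the DREAM complex, were all tested (18), and 0 were called by limma. At an unadjusted p below 0.05, 6 were lower and 1 higher in KO, where 9.35% and 11.4% of all genes were. The median was −0.11. The groups were separate with KO lower for 8 of the 18 and with KO higher for 2, against 24.9% and 30.5% of all genes. Ccnb1, cyclin B1, was at 63.6 and 67.1 FPKM in WT and at 52.7 and 47.0 in KO (difference −0.39, SE 0.092, limma adjusted p = 0.118). The mitotic kinase genes Plk1 and Aurka had differences of −0.38 and −0.47 (limma adjusted p = 0.12 and 0.126), and Cdc20, an activator of the anaphase-promoting complex, −0.37 (limma adjusted p = 0.134). Limma-voom called these 4 lower and 1 gene, Mki67, higher, where 2.92% and 4.36% of all genes were. Mki67, a proliferation marker that was chosen with its values in view, was at 15.9 and 18.7 FPKM in WT and at 22.9 and 32.1 in KO. Of the 18 estimates, 13 were below 0 and 5 above.

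**Figure D4:**
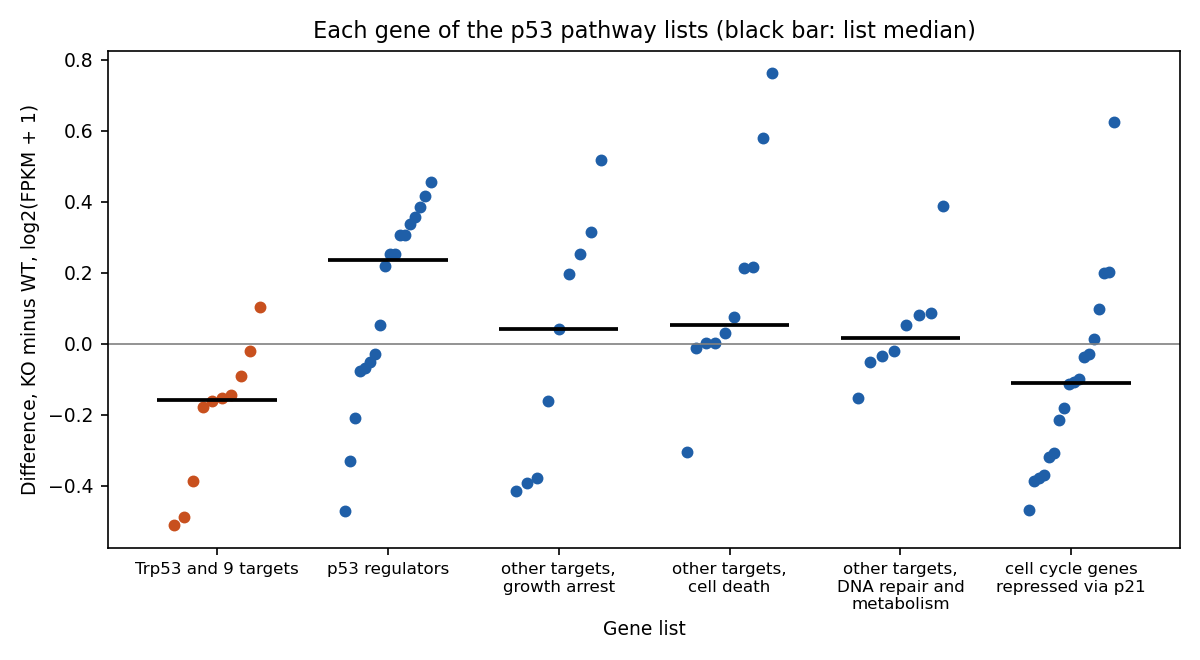
Estimated difference, KO minus WT, on the log2(FPKM + 1) scale for each tested gene of the p53 pathway lists, sorted within a list; orange points are Trp53 and its 9 targets, blue points genes of the other lists, and black bars the list medians. The medians are −0.16 for the 10 genes, 0.24 for the regulators, 0.04, 0.05 and 0.02 for the other targets and −0.11 for the cell cycle genes.

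The genes whose pattern over the 4 libraries was closest to that of Trp53 were Gnl2, Mat2a and Gmeb1, at Euclidean distances of 0.0084, 0.0103 and 0.0159 between centred log2(FPKM + 1) values. Trp53 varied so little that 976 genes lay within a distance of 0.1 of it. For Cdkn1a the closest were Hyou1, Dhps and Pomk, at 0.0116, 0.0153 and 0.0185, and 364 genes lay within 0.1. Among the other 9 genes, Mdm2 was the closest to Cdkn1a (0.0541) and Aen the closest to Trp53 (0.137). With 4 libraries such likeness is common and is given as a description.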

How the data were processed

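One deposited table held 16442 genes in 4 libraries, with no unit named. The submitters' processing notes name the build GRCm38 and the tools HISAT2 2.1.0, featureCounts, DESeq2 and CASAVA, without their roles. The deposited values behaved as FPKM with 1 added by the authors (lowest value 1), and that 1 was subtracted. FPKM multiplied by GENCODE M21 exonic length fell on whole reads, within 0.05, in 99.0% to 99.2% of values no larger than 30 reads, which gave the depths and reads of 15906 genes. Genes were matched by symbol, 16003 of 16442 to 1 annotated gene.

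Differences were tested with limma 3.58.1 (R 4.3.3), trend form, two-sided, on log2(FPKM + 1), where the mean FPKM was 1 or more, with group as the only term and Benjamini-Hochberg adjustment (threshold 0.05). This scale understates changes of genes at low level. The fit had 2 residual and 4.10 prior degrees of freedom. The procedure was tested on simulated reads with a fixed spread between replicates. This does not show how it performs with the spread of these libraries. Alternatives were a pseudocount of 0.1, no filter on level, median-ratio scaling, the replicate number as a block, each library left out, and limma-voom on recovered reads. The labels call the replicates biological and say no more of their source.

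The 10 genes and the lists were chosen with earlier results of these data known. Genes named were the 10, up to 4 per pathway list by smallest p, Rreb1, the 3 nearest profiles of Trp53 and of Cdkn1a, and 4 tissue markers; others are said to be named after their values were seen. Promoter windows came from RefSeq (GRCm38.p6); a wider search around each start was planned, and no genome sequence was used here.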

Additional observations from a re-analysis of the deposited data

How the results depend on the processing

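None of the 10 genes was called under 8 of the 9 alternatives, and the ninth, limma-voom on recovered reads, called 1 of them (Pmaip1, −0.39) lower. Their median was −0.26 when WT replicate 1 was dropped and −0.056 when WT replicate 2 was, the extremes over the 4 fits with 1 library left out. With 1 library left out, the estimate ran from −0.063 to 0.023 for Trp53, from −0.22 to 0.039 for Ccng1, from −0.037 to 0.25 for Trp53inp1 and from −0.013 to 0.27 for Rreb1. These 4 changed sign without KO replicate 2, WT replicate 2, WT replicate 1 and WT replicate 1, in that order, and none was called. The cause was not tested.

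Over all genes, 71 were higher and 48 lower. With no filter on level there were 22 and 10, and limma-voom gave 501 and 335. The growth arrest median of 0.04 was −0.155 without WT replicate 2 and −0.047 without KO replicate 2. The counts ran from 4 to 50 and from 2 to 14 with 1 library left out, where the fits had fewer samples and a group of 1 library, assumed to vary like the other. Limma-voom called 4 regulators higher, 2 death genes higher, 1 repair gene higher, and 4 cell cycle genes lower and 1 higher, where limma called 0. With the replicate block 40 genes were higher and 26 lower, and 0 of the 10 were called. Over all genes tested, same-numbered libraries did not deviate together (correlation 0.0090). With 2 libraries per genotype this is a single correlation, which cannot decide whether same-numbered libraries share a source or batch. Zmat3 and Trp53inp1 had 215 to 384 reads per library, where counting error is 5.10% to 6.82% of the level, while their WT libraries differed 1.34-fold.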

Other observations

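Among the genes of the pathway lists that are not among the 10, 3 held the p53 consensus with at most 2 mismatches in a RefSeq promoter window: Trp73, Ckap2 and Kif23. They were 1 of 18 regulators, 1 of 10 growth arrest genes and 1 of 14 cell cycle genes with a window. Of the death and repair lists, 0 of 10 and 0 of 8 held one, and of all genes with a window 0.392% did. Trp73 was not among the genes of the deposited data, so it has no level here. Ckap2, a microtubule-associated protein of dividing cells, was at 14.4 and 18.2 FPKM in WT and at 16.2 and 17.3 FPKM in KO. Kif23, a kinesin of cytokinesis, was at 8.39 and 10 FPKM in WT and at 9.52 and 9.02 FPKM in KO. The groups overlapped for both genes, and neither was called by limma (adjusted p = 0.869 and 0.950). These genes were named after their values were seen.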
